A study of Mus musculus with 4 samples.

Results

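The genes of 10 variant-defining accessory subunits of the BAF chromatin remodelling complexes were examined for CUT&RUN peaks in mouse medullary thymic epithelial cells: Arid1a, Arid1b, Dpf2, Arid2, Pbrm1, Brd7, Phf10, Brd9, Ss18 and Bcl7a. They are 10 of 21627 protein-coding genes on the chromosomes that carry peaks, and all 10 were matched by symbol. A peak was assigned to a gene when its midpoint lay inside the gene's RefSeq interval or within 5 kb of it, a stretch called the gene window below. In mTEClo replicate 1 the 10 windows took 54 of the 89809 listed peaks, and in replicate 2 they took 43 of 69359. The mTEChi lists gave 49 of 73510 (replicate 1) and 57 of 85308 (replicate 2). As a share of the list this was 0.0601% and 0.0620% for mTEClo against 0.0667% and 0.0668% for mTEChi. Below, paired values stand in the order replicate 1, replicate 2.

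The libraries came from 2 sorted populations, mTEClo and mTEChi, with 2 libraries of each, all carrying the Trp53-WT genotype, from thymi of mice aged 4 to 5 weeks. Epithelial cells were enriched by EpCAM and 500000 cells entered each reaction. By the usual definition the mTEClo gate takes medullary epithelial cells with low MHC class II at the surface, and the mTEChi gate takes those with high levels, among them the Aire-positive cells. The titles call the libraries anti-P53, while the written protocol describes incubation with anti-BAF155, an antibody to the core BAF subunit encoded by Smarcc1. The sources used here do not resolve that conflict, so a peak is described only as a site in these lists. Neither do the labels say whether replicates came from separate mice or pools, so a p-value over libraries reflects how far these 4 libraries differ, and that may be technical variation. No control-antibody library was analysed here, and peak lists carry no read counts, so depth is unknown.

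BAF, also called SWI/SNF, complexes use ATP to slide or evict nucleosomes and thereby open regulatory DNA. They are assembled in 3 forms around a shared core and an ATPase. Canonical BAF (cBAF) is defined by ARID1A or ARID1B together with DPF2, polybromo BAF (PBAF) by ARID2, PBRM1, BRD7 and PHF10, and non-canonical BAF (ncBAF) by BRD9. SS18 belongs to cBAF and ncBAF, and BCL7A is found in all of the forms. The complexes act at promoters and enhancers in many tissues, and the choice of accessory subunit helps to direct where they bind.

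Every member had a peak in at least 2 libraries, and 7 of the 10 had one in all 4: Arid1a, Arid1b, Arid2, Dpf2, Phf10, Ss18 and Bcl7a. Over all protein-coding genes 51.9% had a peak in all 4 libraries. In both mTEClo libraries 8 members had a peak (63.1% of all genes), and in both mTEChi libraries 9 (61.2% of all genes). By library, 9 and 8 members had a peak in mTEClo, where the share over all genes was 75.5% and 68.8%. For mTEChi the numbers were 9 and 10, with 69.3% and 73% over all genes. The mTEClo mean of 8.5 ± 0.707 members and the mTEChi mean of 9.5 ± 0.707 (SD, n = 2 each) differed by 1 member, and replicate 1 of both states had the same number (exact permutation test, two-sided, p = 0.667). A comparison of 4 libraries in pairs cannot give a p below 0.333 in that test, which is above the 0.05 threshold whatever the values are.

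A longer window has more room for peaks, and the members are long: their median interval was 45.6 kb against 17.3 kb for all protein-coding genes. Arid1b, of 353 kb, alone held 42.6% and 55.8% of the members' mTEClo peaks and 42.9% and 45.6% of their mTEChi peaks. Counted per length, the member windows held 5.82 and 4.63 peaks per 100 kb in mTEClo, while mTEChi had 5.28 and 6.14. The windows of all protein-coding genes held 4.90 and 3.73 in mTEClo and 3.91 and 4.52 in mTEChi, lower in each library. Without Arid1b this order did not hold in mTEClo replicate 2, where the remaining members had 19 peaks. The members' total was 48.5 ± 7.78 peaks for mTEClo against 53 ± 5.66 for mTEChi (SD, n = 2 each), with overlap (exact permutation test, two-sided, p = 0.667). Ranks follow the score that the authors' peak caller gave each peak, as a percentage from the top of that list, so that a lower percentage is a stronger peak. The median member peak stood 42.1% and 48.8% from the top in mTEClo and 29.1% and 57.8% in mTEChi, and the groups overlapped (exact permutation test, two-sided, p = 1). With each list cut to its 69359 highest peaks, the length of the shortest, none of these 3 comparisons overlapped. The differences (mTEClo minus mTEChi) were then -1 member, -3 peaks and 12.8 percentage points of median rank, each at the smallest p the exact permutation test allows, 0.333.

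**Figure D1:**
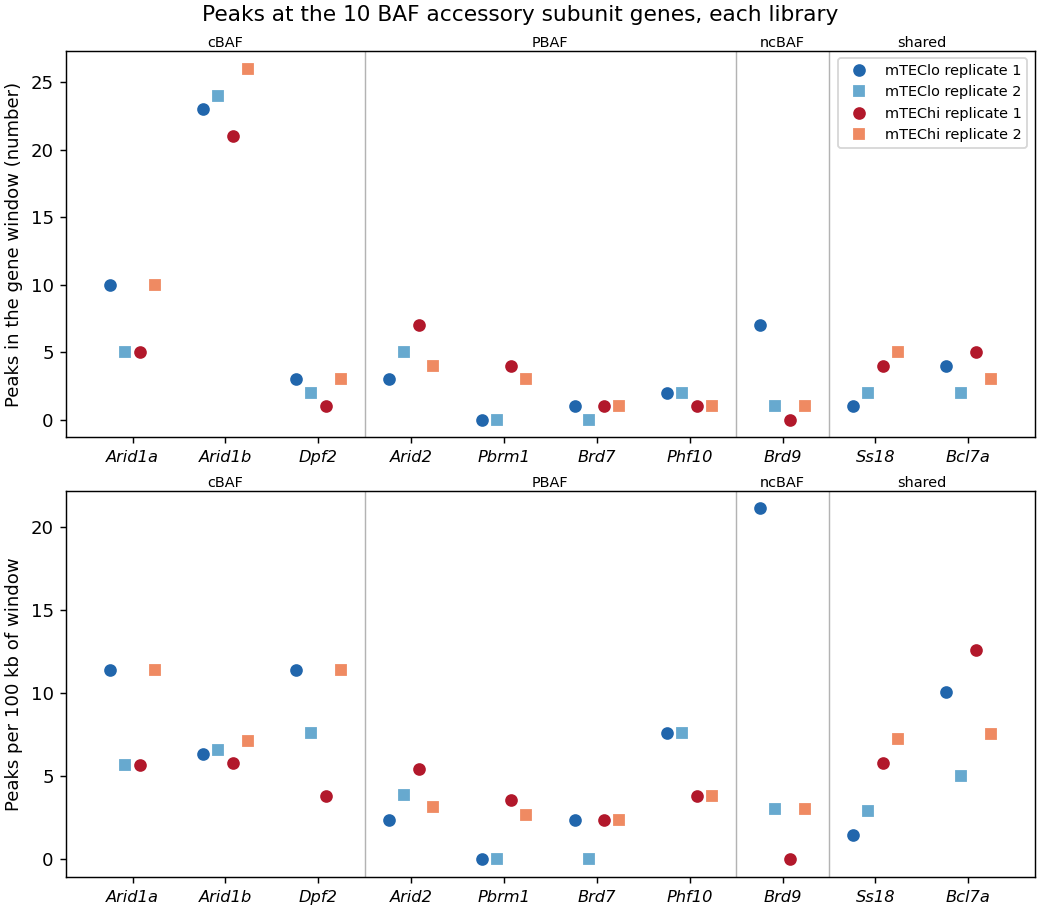
Number of peaks in each gene window (upper panel) and peaks per 100 kb of window (lower panel), 1 point per library, with the genes grouped by the complex they define. Arid1b holds 21 to 26 peaks in every library, Pbrm1 holds none in either mTEClo library, and Brd9 holds 7 in mTEClo replicate 1 against 0 or 1 elsewhere.

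At gene starts, Arid1a and Dpf2 had a peak within 1 kb in all 4 libraries, as had 17.1% of all genes. Pbrm1 had such a peak in each mTEChi library and in none of mTEClo, a pattern of 1.72% of all genes, and no member had the opposite pattern, which 4.01% of all genes had. Brd7, Phf10 and Ss18 had none in any library, as had 37% of all genes. Arid1b, Arid2, Brd9 and Bcl7a had one in 1 or 2 libraries. Members with a peak at a start numbered 5 and 3 in mTEClo and 5 and 3 in mTEChi (all genes: 46.7% and 34.5%, 36.8% and 35.5%), and Arid1a and Dpf2 were the 2 with one in both mTEClo libraries (27% of all genes) and, with Pbrm1, the 3 in both mTEChi libraries (25.3%). The means were equal (4 ± 1.41 each, SD, n = 2). Starts were taken from the RefSeq promoter table, which holds 7 of the 10 members; for Arid2, Ss18 and Bcl7a either end of the interval was used.

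The promoters of Arid1a, Dpf2 and Pbrm1 are shown because the peaks nearest to these starts lie on them. Each runs from 250 bases before the RefSeq start to 50 after it, 5′ to 3′ on the gene's strand, in build GRCm38.p6. Capitals mark matches, on either strand, to the GC box GGGCGG, the NF-Y box CCAAT and the E-box CACGTG. Arid1a lies on the minus strand at chr4:133756720-133757019, Dpf2 on the minus strand at chr19:5912822-5913121 and Pbrm1 on the plus strand at chr14:31018888-31019187. Arid1a and Dpf2 met the rule of a start peak in at least 3 libraries, and Pbrm1 was added after its values were seen.
Arid1a: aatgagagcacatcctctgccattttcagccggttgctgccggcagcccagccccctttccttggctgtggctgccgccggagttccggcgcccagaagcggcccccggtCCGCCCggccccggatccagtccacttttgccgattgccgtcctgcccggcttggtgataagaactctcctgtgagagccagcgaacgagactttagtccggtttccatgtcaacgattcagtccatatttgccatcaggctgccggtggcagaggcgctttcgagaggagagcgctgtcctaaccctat
Dpf2: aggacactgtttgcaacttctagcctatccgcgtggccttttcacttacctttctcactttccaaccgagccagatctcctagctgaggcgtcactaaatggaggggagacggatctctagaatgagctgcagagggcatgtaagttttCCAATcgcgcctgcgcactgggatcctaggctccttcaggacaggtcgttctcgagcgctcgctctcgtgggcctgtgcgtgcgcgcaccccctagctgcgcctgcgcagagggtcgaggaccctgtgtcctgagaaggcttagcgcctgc
Pbrm1: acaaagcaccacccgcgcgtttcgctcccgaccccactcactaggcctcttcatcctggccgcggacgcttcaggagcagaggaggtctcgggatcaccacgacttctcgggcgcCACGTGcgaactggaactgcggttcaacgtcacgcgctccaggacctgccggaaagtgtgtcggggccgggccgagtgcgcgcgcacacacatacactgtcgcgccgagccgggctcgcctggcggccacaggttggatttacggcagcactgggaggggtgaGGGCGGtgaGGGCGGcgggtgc

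GC boxes stood in 46.7%, CCAAT in 38.5% and the E-box in 7.91% of 21044 promoters of the same length. The E-box of Pbrm1 spans bases 116 to 121 of its sequence, and the 2 mTEChi midpoints fall at bases 108 and 126. In Dpf2 the midpoints fall at bases 209, 216, 278 and 261 in the order mTEClo replicates 1 and 2 and mTEChi replicates 1 and 2, with CCAAT at bases 150 to 154. In Arid1a 3 midpoints fall inside the sequence, at base 67 in mTEClo replicate 1 and at bases 59 and 181 in mTEChi replicates 1 and 2, with a GC box at bases 111 to 116. None of the 9 promoters listed for 7 members held a match to NRF1 (GCGCATGCG), Ets (CCGGAAGT), CRE (TGACGTCA), AP-1 (TGAGTCA) or the p53 decamer, which stood in 2.37%, 5.20%, 2.26%, 4.69% and 7.37% of all promoters. A match is a description of letters and not a bound site. The 3 printed promoters had 61.3% (Arid1a), 58.7% (Dpf2) and 68.0% (Pbrm1) G and C, against a median of 56.7% over all promoters. Every other listed member promoter was above that median too. The inner Arid1a promoter had 79.7%, Arid1b 75.3%, Brd9 72.0% and 71.3%, and Brd7 64.0%. Phf10, with no peak at its start, had the highest value, 87.0%, and 62 CpG pairs.

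**Figure D2:**
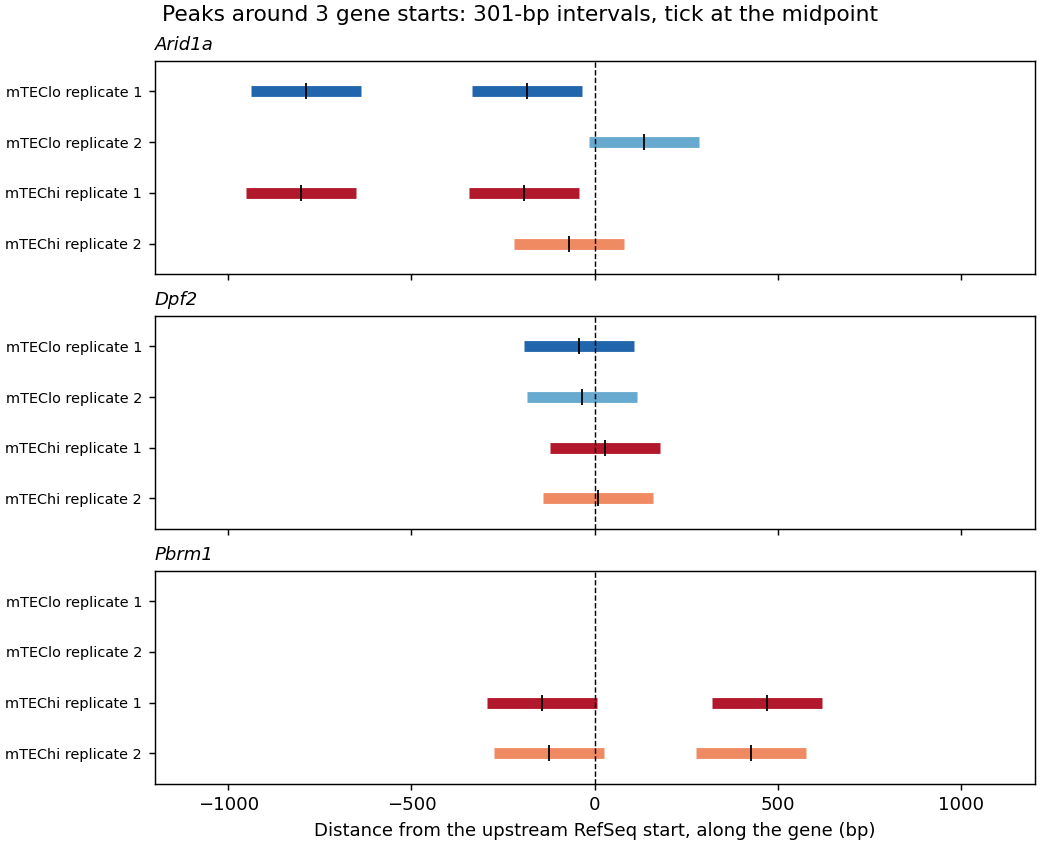
Peaks near the upstream RefSeq start of Arid1a, Dpf2 and Pbrm1, drawn along the gene; bars are the deposited intervals and ticks their midpoints. Dpf2 has a bar across the start in all 4 libraries within 69 bp of each other, and Pbrm1 has bars in mTEChi but not in mTEClo.

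ARID1A is the DNA-binding scaffold subunit of cBAF and is often mutated in cancer. Its gene (chromosome 4, 133679008 to 133756769, minus strand) had 10 and 5 peaks in mTEClo and 5 and 10 in mTEChi, so the groups overlapped fully. Both of its regions found in all 4 libraries lay near the 5′ end. The upstream start carried the first, with midpoints 184 bp upstream in mTEClo replicate 1, 134 bp downstream in mTEClo replicate 2, and 192 and 70 bp upstream in mTEChi replicates 1 and 2. These peaks stood 5.41%, 9.07%, 8.01% and 10.8% from the top of their lists. The second lay inside the gene between midpoints 133751667 and 133751712, 2273 to 2318 bp past the inner RefSeq start. It ranked 1.43% and 35.1% from the top in mTEClo and 2.57% and 7.27% in mTEChi. Between them, 399 and 431 bp upstream of the inner start, both mTEClo libraries alone had a peak (24.3% in replicate 2 and 47.7% in replicate 1). Deeper in the gene, 3 libraries shared a region near 133729797, and both mTEChi libraries alone had one between midpoints 133690384 and 133690564 (29.1% and 75.6%).

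ARID1B, the alternative to ARID1A in cBAF, is encoded by a gene of chromosome 17 (4994297 to 5347656, plus strand) whose interval is longer than those of all but 429 protein-coding genes. It held 23 and 24 peaks in mTEClo and 21 and 26 in mTEChi, or 6.33 and 6.61 per 100 kb against 5.78 and 7.16, with no separation. Those peaks formed 66 regions, of which 48 had a peak in 1 library, 11 in 2, 4 in 3 and 3 in all 4. The 3 regions of all 4 libraries lay 2330 to 2506 bp, 143935 to 143983 bp and 300579 to 300791 bp past the listed start. The middle one had the most even ranks, 7.67% and 4.21% from the top in mTEClo and 3.19% and 2.2% in mTEChi, with midpoints within 5139009 to 5139057. The listed start itself had a peak within 1 kb in mTEClo replicate 1 alone, 749 bp upstream and 36.7% from the top. That peak lay 28 bp inside the gene interval, which begins upstream of the listed start. A region 418 and 454 bp outside that end was shared by mTEClo replicate 2 (97.1% from the top) and mTEChi replicate 2 (40.0%). Its midpoints stood 1195 and 1231 bp upstream of the listed start, beyond the 1 kb limit. State-specific regions were equal in number, 3 in both mTEClo libraries alone and 3 in both mTEChi libraries alone. The strongest of the former, with midpoints at 5190012 and 5189935, ranked 1.28% and 3.27% from the top. The strongest of the latter, at 5150892 and 5150914, ranked 11.1% and 7.27%. The best Arid1b peak ranked higher in both mTEClo libraries (1.28% and 0.895%) than in both mTEChi libraries (3.19% and 2.2%), an order that 17.4% of genes with a peak in all 4 libraries showed. These best peaks were at different sites, with midpoints 5190012 and 5165645 in mTEClo. The region of the latter also had a peak in mTEChi replicate 1 (51.8%). Both mTEChi values came from the middle region of all 4 libraries.

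DPF2 reads acetylated histone tails for cBAF through its PHD fingers. Dpf2 (chromosome 19, 5896516 to 5912871, minus strand) had 3 and 2 peaks in mTEClo and 1 and 3 in mTEChi. Its start peaks lay closer together than those of Arid1a. The mTEClo midpoints stood 42 and 35 bp upstream and the mTEChi midpoints 27 and 10 bp downstream. They ranked 0.374% and 24.3% from the top in mTEClo and 11.1% and 1.43% in mTEChi, so that 1 library of each state held the site near the top of its list. The remaining Dpf2 peaks ranked 69.7% to 93.8% from the top in mTEClo, and in mTEChi replicate 2 they ranked 2.98% and 57.8%. A pair of regions, at 5894176 to 5894292 and 5906929 to 5907146, was found in mTEClo replicate 1 and mTEChi replicate 2 but not in the other two libraries.

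**Figure D3:**
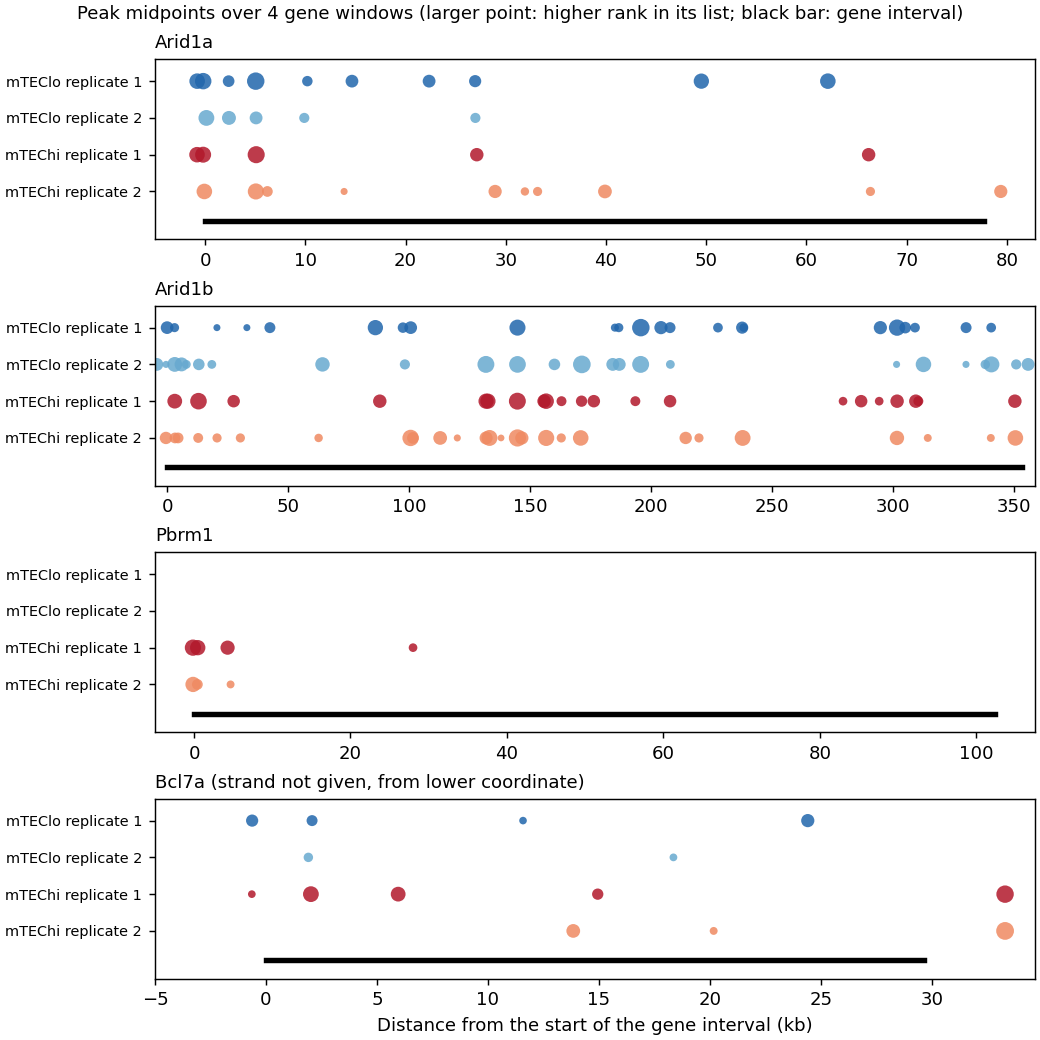
Peak midpoints along the windows of Arid1a, Arid1b, Pbrm1 and Bcl7a, 1 row per library, in kb from the start of the gene interval (Bcl7a from its lower coordinate); larger points rank higher in their list. All but 1 of the Pbrm1 peaks lie near the 5′ end, where Arid1a also has its 2 regions of all 4 libraries, those of Arid1b spread over the whole interval, and Bcl7a has its largest points beyond the interval in the mTEChi libraries.

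Summed over Arid2, Pbrm1, Brd7 and Phf10, the PBAF genes, the windows held 6 and 7 mTEClo peaks against 13 and 9 for mTEChi, without overlap, while the cBAF genes held 36 and 31 against 27 and 39. Without Pbrm1 the PBAF sums were 6 and 7 against 9 and 6, and overlapped. PBRM1 carries the bromodomains that bind acetylated histones in PBAF. Pbrm1 (chromosome 14, 31019138 to 31121592, plus strand) had 0 and 0 peaks in mTEClo and 4 and 3 in mTEChi. Such a window, with peaks in each mTEChi library but none of mTEClo, was found at 1.67% of all genes and at 1 of the 10 members, and the reverse at 2.14% of all genes and 0 members. Its first region, midpoints 31018995 and 31019013, lay 143 and 125 bp upstream of the start and ranked 6.5% and 12.6% from the top. The next, at 31019609 and 31019563, lay 471 and 425 bp inside and ranked 12.4% and 57.8%. Each mTEChi library had another peak 4288 or 4671 bp inside the gene (21.9% and 88.6%), and replicate 1 had a further peak 27996 bp inside (80.9%). The start of Pbrm1 is 6 bases from the interval of Gnl3, which encodes a nucleolar GTP-binding protein, and the first region covers both gene ends, so these peaks cannot be assigned to either gene. With 25 kb added to the interval in place of 5 kb, mTEClo had 5 and 5 peaks and mTEChi 7 and 9. Among the 10000 highest peaks of each list, mTEChi replicate 1 kept 2 of them and mTEChi replicate 2 kept 0, which ends the separation.

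ARID2 is the DNA-binding subunit that takes the place of ARID1 in PBAF. Arid2 (chromosome 15, 96287522 to 96405463) had 3 and 5 peaks in mTEClo and 7 and 4 in mTEChi, with overlap. In narrower windows the states did not overlap. The share of all genes with such an order was taken only with 5 kb added (8.4%). With 0 kb added Arid2 had 2 and 2 peaks in mTEClo and 3 and 3 in mTEChi. With 1 kb it had 2 and 2 against 4 and 3. In 3 of the 4 libraries its strongest peak lay outside the lower coordinate of the interval, while in mTEChi replicate 2 it lay inside the gene (midpoint 96382953, 10.8% from the top). A region with midpoints from 96285694 to 96285747 was found in both mTEClo libraries (1.48% and 64.6% from the top) and in mTEChi replicate 1 (25.3%). Another, at 96283984 and 96284053, was found in mTEClo replicate 2 (5.71%) and mTEChi replicate 1 (3.95%). These positions are also inside the interval of the predicted gene Gm38469, which ends 123 bases from that of Arid2. None of the 14 other regions of the window was shared between libraries.

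BRD7, a bromodomain subunit of PBAF, and PHF10, its PHD finger subunit, had few peaks, and most of these belonged to neighbours by position. Brd7 (chromosome 8, 88329894 to 88362252, minus strand) had 1 and 0 peaks in mTEClo and 1 and 1 in mTEChi. All 3 lay at separate positions inside the interval of Adcy7, an adenylate cyclase gene, at 1204 to 2464 bp from the lower coordinate of Brd7 and over 33 kb from its start. Phf10 (chromosome 17, 14944994 to 14961260, minus strand) had 2 and 2 peaks in mTEClo and 1 and 1 in mTEChi. Both mTEClo libraries lay above both mTEChi libraries, as for 9.28% of all genes, and Phf10 was the 1 member of that kind. The peak found in all 4 libraries, midpoints 14943089 to 14943191, ranked 6.10% and 2.80% from the top in mTEClo and 4.93% and 20.6% in mTEChi. It stood 7 to 95 bp from an end of 1600012H06Rik and 1803 to 1905 bp outside Phf10. Its 4 midpoints lay inside the interval of Wdr27, as did the other Phf10 peak of mTEClo replicate 2. Only the mTEChi replicate 2 midpoint was also inside 1600012H06Rik. Inside Phf10 itself there was 1 peak, in mTEClo replicate 1 (31.4%). With 1 kb added in place of 5 kb Phf10 had 1 and 0 peaks in mTEClo and 0 and 0 in mTEChi, which ends the separation.

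BRD9, the bromodomain subunit that defines ncBAF, was marked almost entirely by a single library. Brd9 (chromosome 13, 73937801 to 73960895, plus strand) had 7 and 1 peaks in mTEClo and 0 and 1 in mTEChi, or 21.2 peaks per 100 kb in mTEClo replicate 1 against 0 to 3.02 in the other libraries. In that library 1 peak lay 314 bp upstream of a start (17.1% from the top), inside the interval of Trip13, which ends 5 bases from Brd9, and another 166 bp inside (23.0%). No other library had a peak within 1 kb of the Brd9 starts. A region 454 and 465 bp above the upper coordinate was shared by both mTEClo libraries (31.4% in replicate 1 and 90.2% in replicate 2). The Brd9 peak of mTEChi replicate 2 lay 1129 bp inside and stood 97.0% from the top. With each list cut to the length of the shortest, Brd9 had 6 and 1 peaks in mTEClo and 0 and 0 in mTEChi, without overlap. The mTEClo replicate 2 peak is the one at 90.2%, and the mTEChi replicate 2 peak at 97.0% was cut. Above the median score the counts were 6 and 0 against 0 and 0, with overlap. The share of all genes so separated was not taken at these settings.

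SS18, a subunit shared by cBAF and ncBAF and the fusion partner in synovial sarcoma, and BCL7A, found in all of the forms, had more peaks in mTEChi when summed: 5 and 4 in mTEClo against 9 and 8. Only Ss18 showed this order by itself, while Bcl7a overlapped (4 and 2 against 5 and 3). Ss18 (chromosome 18, 14625629 to 14684419) had 1 and 2 peaks in mTEClo and 4 and 5 in mTEChi, without overlap. Both mTEChi libraries lay above both mTEClo libraries at 8.4% of all genes and at 2 of the 10 members, Pbrm1 and Ss18. The Ss18 peaks were weak and scattered, with the best of each list at 91.9% and 35.1% from the top in mTEClo and 44.4% and 40.0% in mTEChi. Of 11 regions, 10 had a peak in 1 library and 1 in both mTEChi libraries. Counting peaks whose score exceeded the median of their list, the numbers were 0 and 1 in mTEClo and 2 and 1 in mTEChi, which overlap.

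Bcl7a (chromosome 5, 123344448 to 123374083) had 4 and 2 peaks in mTEClo and 5 and 3 in mTEChi. It also held, of the 5 mTEClo-only and 8 mTEChi-only regions in the member windows, the one whose weaker peak ranked highest. In both mTEChi libraries a peak lay 3671 and 3672 bp above the upper coordinate, midpoints 123377754 and 123377755, 1.47% and 0.584% from the top with authors' scores of 19.0 and 15.6. Neither mTEClo library had a peak there, and their best Bcl7a peaks stood 31.4% and 72.5% from the top. A best peak that ranked higher in both mTEChi libraries was found at 20.7% of the genes with a peak in all 4 libraries, and at 1 of the 7 members tested, Bcl7a. Near the lower coordinate a region at 123346361 to 123346528 was shared by both mTEClo libraries (55.4% and 72.5%) and mTEChi replicate 1 (9.40%).

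**Figure D4:**
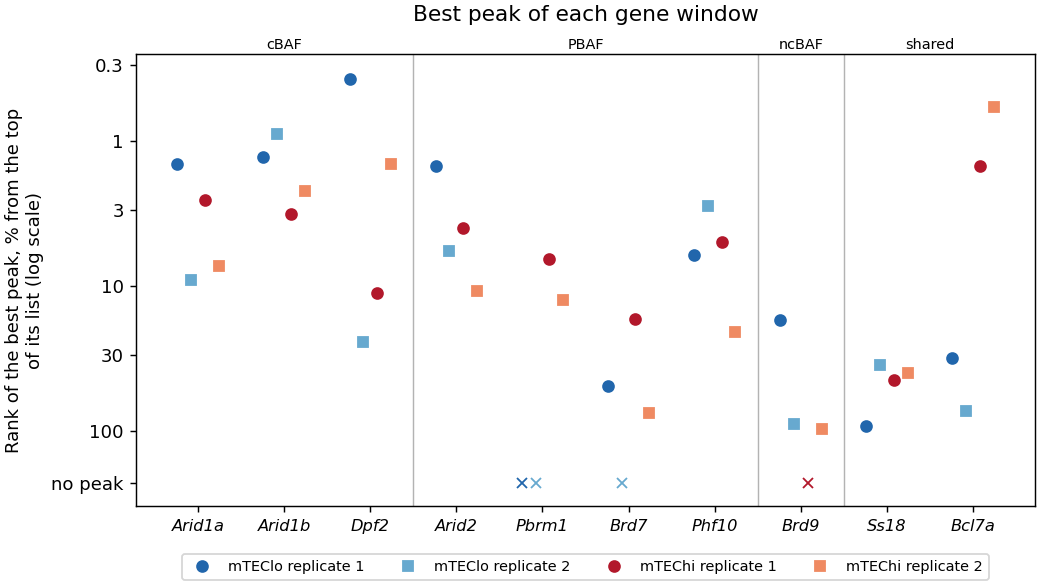
Rank of the best peak of each gene window as a percentage from the top of its list (log scale, strongest at the top), 1 point per library; crosses mark libraries with no peak. Among the genes with a peak in all 4 libraries, Bcl7a is the one whose mTEChi points (1.47% and 0.584%) both lie above its mTEClo points (31.4% and 72.5%), and Arid1b the one with the opposite order.

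The member windows held 145 distinct regions after overlapping peaks of the 4 libraries were merged, of which 108 (74.5%) had a peak in 1 library, 23 (15.9%) in 2, 7 (4.83%) in 3 and 7 (4.83%) in all 4. Over the windows of 21 other BAF genes the share in all 4 libraries was 4.53%, close to that of the members, over those of all protein-coding genes 2.84%, and over the genome 1.99%. The 7 regions lay at Arid1b (3), Arid1a (2), Dpf2 (1) and Phf10 (1). Regions of both mTEClo libraries alone numbered 5 (3.45%, against 3.40% over the other BAF genes and 3.04% over all gene windows), at Arid1b (3), Arid1a (1) and Brd9 (1). Those of both mTEChi libraries alone numbered 8 (5.52%, against 2.64% and 2.04%), at Arid1b (3), Pbrm1 (2), Arid1a (1), Ss18 (1) and Bcl7a (1). Regions share their libraries and are not replicates, so these shares carry no test, and 66 of the 145 belong to Arid1b. By library, 44.4% and 51.2% of the member peaks in mTEClo and 51% and 42.1% in mTEChi lay in a region of another library, against 31.6%, 32.4%, 31.9% and 25.8% of the whole lists.

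**Figure D5:**
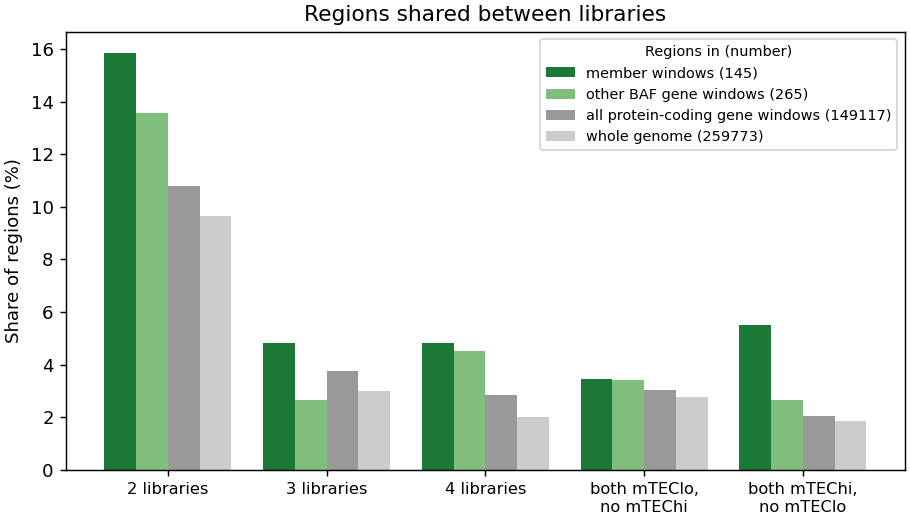
Share of regions with a peak in 2, 3 or all 4 libraries, and in both libraries of 1 state alone, for the member windows, the windows of 21 other BAF genes, all protein-coding gene windows and the genome. The member bars stand above all gene windows in each class (4.83% against 2.84% in all 4 libraries), but close to the other BAF genes in all 4 libraries (4.53%) and in both mTEClo libraries alone (3.45% against 3.40%).

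The other genes of the complexes were read the same way, 12 of the core and ATPases and 9 of the remaining accessory subunits. Of these 21 genes, 17 and 17 had a peak for mTEClo while 18 and 19 had one for mTEChi, with means of 17 ± 0 for mTEClo against 18.5 ± 0.707 for mTEChi (SD, n = 2 each, exact permutation test, two-sided, p = 0.333, the smallest possible). Over all genes, 75.5% and 68.8% had a peak for mTEClo and 69.3% and 73% for mTEChi. All 4 libraries had a peak at 7 of the 12 core genes and 8 of the 9 accessory genes, against 51.9% of all genes. The lengths of these genes were not taken into account. Smarce1, a DNA-bending core subunit gene, resembled Pbrm1, with 0 and 0 peaks in mTEClo and 1 and 1 in mTEChi, and none of the 21 had the opposite pattern. Over all genes 1.67% had the pattern of Smarce1 and 2.14% the opposite. A peak within 1 kb of a start in all 4 libraries was found at Smarca4, which encodes the ATPase BRG1, Smarcc1, which encodes BAF155, Actl6a, an actin-related subunit gene, Dpf3, Bcl7c and Bicra. The share over all genes was 17.1%. In Bicra, the ncBAF scaffold gene, the best peaks stood 1.87% and 2.57% from the top in mTEClo and 1.15% and 3.36% in mTEChi. Smarcd2 and Ss18l1 had no peak in any library, which held for 12.8% of all genes. The best peak ranked higher in both mTEChi lists at 5 of the 7 core genes with a peak in all 4 libraries (Smarca2, Smarcb1, Smarcc1, Smarcc2 and Smarcd3, of which all but Smarcc1 are named here after their values were seen), and the opposite order held at none of the 7. Of the 8 other accessory genes with a peak in all 4 libraries, 1 ranked higher in both mTEChi lists (Bcl7b) and 1 in both mTEClo lists (Bcl7c). Over all genes with a peak in all 4 libraries these shares were 20.7% and 17.4%. The number of peaks was higher in both mTEClo libraries at 4 of the 21 genes (Smarcc2, Dpf3, Bcl7c and Bcl11b, against 9.28% of all genes) and in both mTEChi libraries at 2 (Smarca2 and Smarce1, against 8.4%). Bcl7b, Bcl11b and Smarca2 too are named after their values were seen.

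Peaks were also read at cell type markers, although a peak near a gene does not measure its expression. A peak lay in the window of 9 of 10 mTEC markers in all 4 libraries, Ccl21a being the gene with none, with 24 to 35 peaks in mTEClo and 26 to 29 in mTEChi. All 4 libraries had one at 3 of 7 thymocyte genes (11 to 12 peaks in mTEClo, 8 to 19 in mTEChi), 0 of 5 B cell and myeloid genes (5 peaks in each mTEClo library, 1 and 4 in mTEChi, with none at Ms4a1) and 3 of 4 fibroblast and endothelial genes (9 to 20 in mTEClo, 10 to 11 in mTEChi). Over all genes 51.9% had a peak in all 4 libraries, and the lengths of the marker genes were not taken into account. Whether other cells contributed to the member peaks was not tested.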

How the data were processed

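CUT&RUN libraries of 2 mTEClo and 2 mTEChi samples were used, grouped and numbered by their titles. MACS2 2.2.7.1, SAMtools 1.9, Bowtie2 2.2.9 and Picard are the tools, and mm10 the build, per the submitters' processing notes. Settings and any peak-calling control are unstated in the sources used here. The authors deposited 1 list per library of intervals that extend 150 bp on either side of each summit. The score the authors deposited was taken as MACS2's −log10 significance, and whether of a p-value or a q-value is not stated in the lists, whose lowest score is 2.00. Scores are coarse (the 4 commonest values cover 38.7% to 51.1% of a list), so tied peaks share their mean rank. Between 1531 and 3759 peaks per list are named as parts of a split peak.

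Genes and promoters came from RefSeq tables of the same assembly (GRCm38.p6), which give no exons; coordinates count from 1. Peaks that overlapped by at least 1 base across libraries were merged into regions. States were compared by permuting libraries exactly, on both sides. The members, their gene lists and the tests were chosen with earlier results of these data known. Named were all members and, of 21 other BAF genes, those with peaks in both libraries of 1 state alone, in all 4 at a start, or in none; promoters were printed for members with a start peak in at least 3 libraries, and for Pbrm1, with 2, which was added after its values were seen. Window counting was tested on simulated data (800 windows of 200 genes, 0 wrong). Python 3.11.15, numpy 2.4.6 and pandas 2.3.3 were used. Alternatives changed the score limit, list length, window, overlap, handling of split or tied peaks, start width, libraries and replicate block. Same-numbered replicates are not stated to be paired.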

Additional observations from a re-analysis of the deposited data

How the results depend on the processing

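Unknown depth limits all of these values, and no difference between the states could pass a threshold. With replicate numbers as a block the mean differences (mTEClo minus mTEChi) were -1 members, -4.5 peaks and 2.08 percentage points of median rank as without it (exact p = 1 for each), and -1.5 other BAF genes (exact p = 0.5). Deviations of same-numbered libraries correlated at -0.0442 over genes, so the numbers are not shown to pair them. The cause of the following shifts was not tested. With the 10000 highest peaks the rank difference turned from 2.08 to -14.5 and the start difference went from 0 to -1. Regions of all 4 libraries fell from 7 to 2, those of both mTEClo libraries alone from 5 to 1 and of both mTEChi libraries alone from 8 to 2. Shares of all genes separated between the states were taken at the main settings alone (9.28% higher in mTEClo, 8.4% higher in mTEChi). The counts of separated members under the alternatives therefore have no such share beside them. With the 10000 highest peaks, members separated between the states numbered 0 (higher in mTEClo, from 1) and 1 (higher in mTEChi, from 2). The latter was Bcl7a (0 and 0 peaks in mTEClo, 2 and 1 in mTEChi), and Pbrm1 and Ss18 were no longer separated. Above the median score the start difference was 0.5, regions of 1 state alone numbered 2 (mTEClo) and 4 (mTEChi), and separated members 0 and 1 (Pbrm1, higher in mTEChi). The rank difference was 12.8 without overlap (exact permutation test, p = 0.333). Lists cut to the shortest gave 2 members higher in mTEClo, Phf10 and Brd9, and differences of -1 members, -3 peaks and 12.8 points of rank without overlap (exact p = 0.333 each, against 0.667, 0.667 and 1). The difference over other BAF genes was -2.5 above the median score, -2 with the shortest length and -4.5 with the 10000 highest peaks. With 0 kb added, mTEChi-only regions numbered 5, and the difference over other BAF genes was 0. Members higher in mTEClo then numbered 0 (0 with 1 kb too). Those higher in mTEChi numbered 3 (Arid2, Pbrm1 and Ss18, the same with 1 kb). With 25 kb the difference in members with a peak turned from -1 to 0.5 and mTEClo-only regions numbered 10. Midpoints within 75 bp left 4 regions in all 4 libraries and 4 mTEChi-only, and 5 kb at the start gave -1. Leaving out each library in turn gave differences of -1.5 to -0.5 members, -10 to 1 peaks, -12.3 to 16.4 points of rank, and -1 to 1 start members; the peak difference turned to 1 without mTEClo replicate 2, and the rank difference to -1.28 without it and -12.3 without mTEChi replicate 1. Regions of all remaining libraries numbered 7 to 10, mTEClo-only 6 to 35 and mTEChi-only 8 to 41, since 1 list then suffices, and separated members 1 to 4 (higher in mTEClo) and 3 to 4 (higher in mTEChi). In all, 5 alternative values of these results turned in sign; many of the others kept their sign but differed in size, as the values above show.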
